A study of Homo sapiens with 16 samples.

Results

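The Rab GTPases are a family of small GTP-binding proteins, and their mRNAs were followed here through sucrose gradients of 293S cells, which belong to the established human HEK293 family of lines. Members were taken by symbol: RAB, a number and at most 1 further letter, which gave 51 of the 13148 genes in the deposited table. Regulators such as RAB3GAP1, and RAB7L1, whose symbol carries 2 further characters, fall outside that rule. The comparison is between 2 gradients. The arsenite gradient came from cells given 1 mM sodium arsenite, an oxidative stressor that reacts with thiols, for 30 minutes, and the control gradient came from untreated cells of the same line. Each gradient was sequenced as 8 fractions with 1 library each, so the 16 libraries are 16 groups of 1. No value can therefore be set against a spread between replicates, and p-values are not given. All are bulk lysates, in which a change in every cell and a larger change in some cells cannot be told apart. The series as a whole concerns Argonaute 2 binding to mRNAs under stress and its relation to translation.

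Rab proteins are molecular switches of vesicle traffic. In the GTP-bound form they sit on a membrane by prenyl groups at their carboxyl end and recruit effectors such as tethers and motor adaptors. Exchange factors load GTP, GTPase-activating proteins end the active state, and GDP dissociation inhibitors carry the inactive protein through the cytosol. Different members mark different membranes, among them the endoplasmic reticulum and Golgi, early endosomes, recycling endosomes, lysosomes and secretory granules. A sucrose gradient spreads mRNAs by the size of the particles they travel in, and an mRNA with more ribosomes sediments further.

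The values in the deposited table are shares: for a gene, the 8 values of a gradient add up to 1 and say how its mRNA was divided over the fractions. They hold neither the level of an mRNA nor the read depth behind a share. Position means the sum, over the fractions, of fraction number times share. The relative shift is the arsenite position minus the control position, less the median of that difference over all genes, which was −1.46 fractions. An mRNA is said to have moved higher or lower when the size of its relative shift reached 0.5 fractions and its sign held whichever fraction number was removed from the pair of gradients. The labels do not say at which end fraction 1 lay. Arsenite fraction 3 stood apart, with 728 genes at 0 against 58 to 295 in the other arsenite libraries, so results are also given without fraction 3. Of the members, 47 had no share of 0 in any library, and RAB43, RAB26, RAB27B and RAB40A were listed at 0 in 3, 4, 1 and 2 libraries. For 14 members at least 10% of the annotated 36-base stretches also occur in another gene, and their values are uncertain, since the way shared reads were counted is not known. These were RAB43 (91.0%), RAB24 (69.7%), RAB4B (66.4%), RAB23 (58.5%), RAB13 (56.8%), RAB8A (40.8%), RAB1B (40.7%), RAB6A (39.2%), RAB5C (38.1%), RAB40A (26.4%), RAB3D (23.6%), RAB4A (20.9%), RAB11B (13.0%) and RAB21 (12.5%). All 5 HEK293 markers looked up were in the table and none of 4 markers of other cell types was, which says nothing of their level.

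As deposited, the Rab mRNAs lay mainly in fractions 2 and 3 with arsenite and in fraction 5 in the control. In the arsenite gradient 27 of 51 members had their largest share in fraction 2 (52.9%, against 34.5% of all genes), 13 in fraction 3 and 8 in fraction 1. In the control gradient 32 of 51 had it in fraction 5 (62.7%, against 28.6% of all genes). None had it in fraction 7, where 14.9% of all genes had theirs. Among other genes with coding lengths in the Rab range, a comparison chosen after the values were seen, 44.8% had theirs in control fraction 5. In control fraction 7 it was 0.66% of them, and in arsenite fraction 2 it was 44.7%. The median Rab share of control fraction 5 was 30.2%, against 19.1% over all genes. Both patterns depend on how the libraries are weighted against each other. Median-of-ratios size factors bring the typical gene to the same level in every library. A shift common to most genes is thus largely removed by construction. With median-of-ratios size factors the largest arsenite share was in fraction 1 for 26 members (32.4% of all genes), in fraction 2 for 9 (15.8%) and in fraction 3 for 5 (10.2%), and control fraction 5 was the largest for 17 members (12.2% of all genes).

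**Figure D1:**
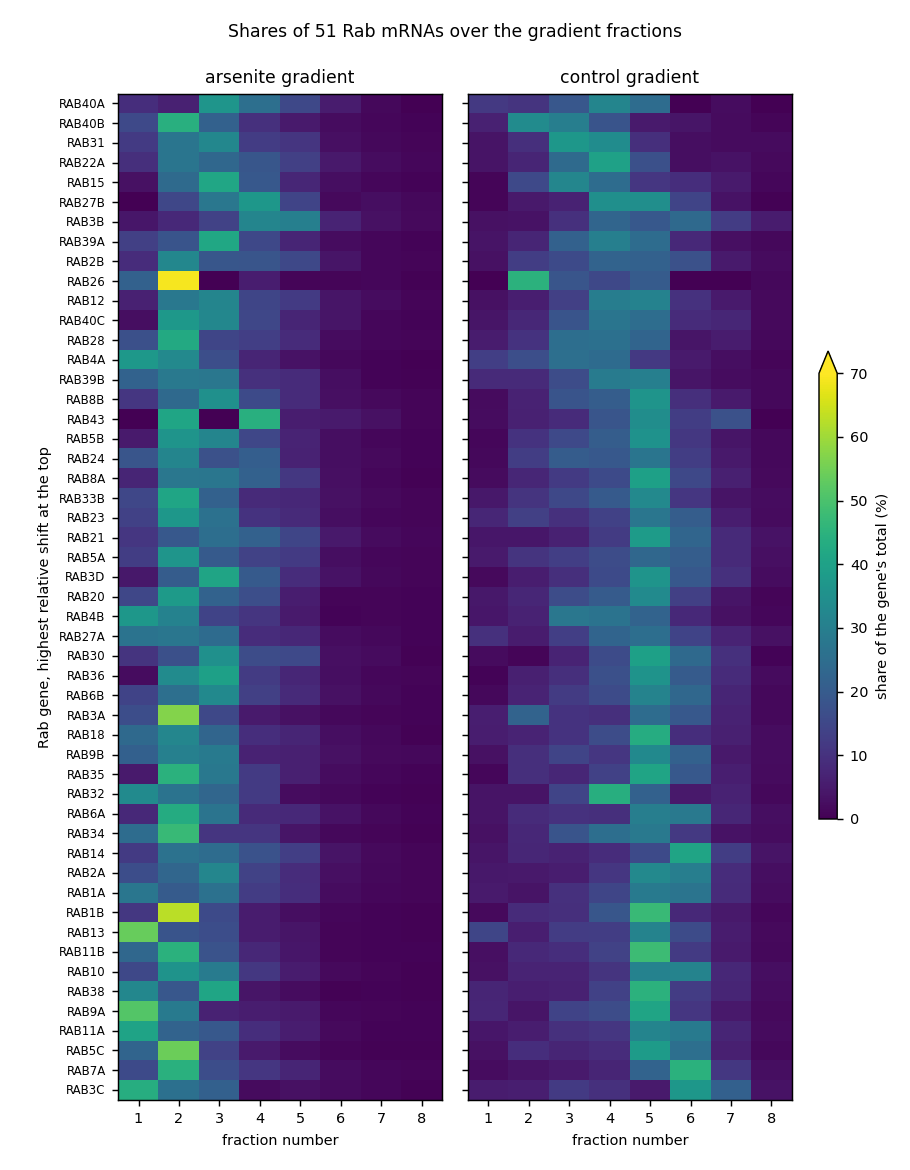
Share of each of 51 Rab mRNAs (rows, ordered by relative shift) in fractions 1 to 8 (columns) of the arsenite gradient and the control gradient, 1 library per column, colour in percent of the gene's total. In the control gradient the bright cells gather in fraction 5, the largest fraction of 32 members, and in the arsenite gradient in fraction 2, the largest of 27.

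As deposited, all 51 members had a lower position with arsenite than in the control, as did 98.3% of all genes. With size factors, which largely remove a common shift by construction, 34 of 51 did (66.7%), and 58.8% of all genes. The median position was 2.80 with arsenite (quartiles over members 2.33 and 3.12) and 4.40 in the control (4.20 and 4.82), against 3.10 and 4.54 over all genes. With size factors the Rab medians were 4.13 with arsenite and 4.28 in the control, against 4.41 and 4.48 over all genes. The part of the total in fractions 5 to 8 had a median of 12.2% with arsenite and 55.3% in the control, against 16.4% and 53.9% over all genes. With size factors it was 41.4% with arsenite and 48.2% in the control, against 47.7% and 50.96% over all genes. As deposited, no member kept 50% of its total there with arsenite (2.34% of all genes did), and 32 had at least that much in the control (62.7%, against 58.6% of all genes). With size factors 8 members had at least that much with arsenite (15.7%, against 44.9% of all genes) and 24 in the control (47.1%, against 52.0% of all genes). As deposited, the share in fractions 5 to 8 was lower with arsenite for 50 of 51 members (98.0%, against 95.7% of all genes). The exception was RAB31, with 16.02% there with arsenite and 15.9% in the control. With size factors that share was lower for 35 members (68.6%, against 55.3% of all genes). Fraction by fraction, log2 ratios of the members' shares, arsenite over control, had medians of 1.83 in fraction 2, −1.79 in fraction 5 and −2.23 in fraction 6. Over all genes these were 1.5, −0.72 and −1.85. A pseudocount of 1 percentage point was used for the ratios, so changes of small shares are understated.

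Relative to the median gene, the median Rab shift was slightly lower, as it was over other genes with coding lengths in the Rab range (−0.22). Of 51 members 15 moved lower (29.4%, where 24.0% of all genes did), 7 moved higher (13.7%, where 23.6% of all genes did) and 29 did neither. The median relative shift was −0.16, with quartiles of −0.52 and 0.25, against quartiles of −0.52 and 0.48 over all genes. The share that moved lower is near that of all genes. With size factors 12 moved lower and 11 higher, where 26.4% and 28.7% of all genes did. Without fraction 3, 18 moved lower and 7 higher, where 25.5% and 26.3% of all genes did, and the median was −0.16. Without fraction 7, 19 moved lower and 6 higher, where 23.1% and 22.0% of all genes did. Without the other fractions the Rab counts ran from 11 to 15 lower and from 5 to 9 higher. The shares of all genes that moved lower were then 21.0, 19.5, 25.4, 24.4, 22.3 and 23.2% without fraction 1, 2, 4, 5, 6 and 8, and those that moved higher 21.0, 22.4, 26.0, 23.7, 20.6 and 23.4%. By the 50% point 17 members moved lower and 7 higher (24.1% and 26.8% of all genes). With 1 percentage point added to each share 12 moved lower and 7 higher (21.7% and 21.7%), and among genes with no share of 0, 13 and 5 (23.8% and 23.0%). At a threshold of 0.25 fractions 24 moved lower and 11 higher (31.3% and 34.8%), and at a threshold of 1 fraction 4 and 1 (9.33% and 6.69%). Without fraction 7 the median was −0.33. Just inside the threshold were RAB3B at 0.63 and RAB6A at −0.50, and just outside it RAB39A at 0.38 and RAB32 at −0.47.

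**Figure D2:**
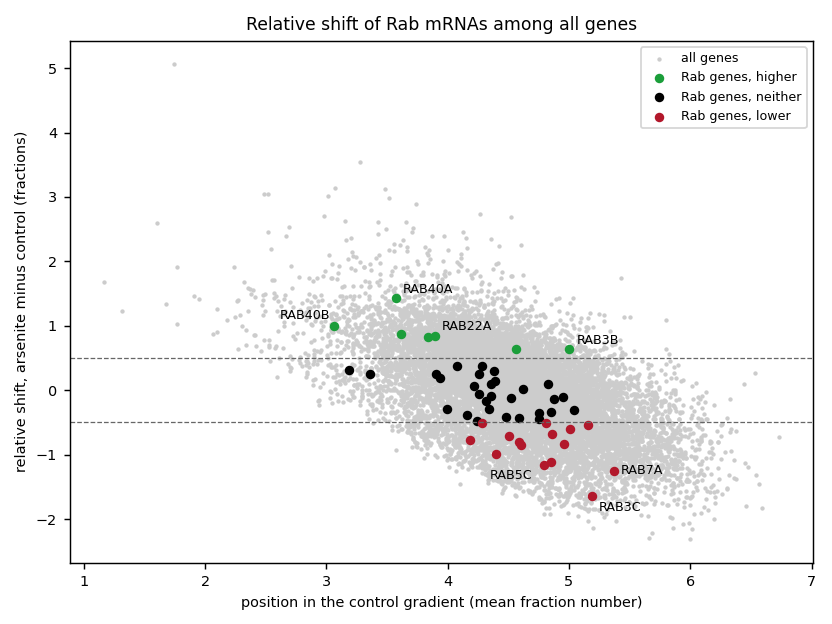
Relative shift (vertical axis, fractions, arsenite minus control after subtracting the median gene) against position in the control gradient (horizontal axis, mean fraction number) for all genes (grey) and the 51 Rab genes (coloured by whether they moved higher, lower or neither). Rab points lie within the cloud of all genes, from RAB40A at 1.42 to RAB3C at −1.64, and the dashed lines mark 0.5 and −0.5.

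Members with a high control position tended to have low relative shifts, with a Spearman correlation of −0.61 across the 51 members and −0.55 across all genes. The control position is itself part of the shift, and all points share the same 16 libraries. The order of the members changed between gradients: the positions with arsenite and in the control had a Spearman correlation of 0.20 across the 51 members and 0.33 across all genes.

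The Rab genes of the endoplasmic reticulum and Golgi had a median relative shift of −0.38 over 10 members, and 4 moved lower and none higher. Counts in this and the following role groups are small. Over all genes 24.0% moved lower and 23.6% higher. Over other genes with coding lengths in the Rab range it was 33.5% and 15.8%. RAB1B, which with RAB1A drives transport between the endoplasmic reticulum and the Golgi, had 11.4, 62.7, 15.6, 5.38, 2.64, 1.12, 0.676 and 0.444% of its total in arsenite fractions 1 to 8. In control fractions 1 to 8 it had 1.75, 8.53, 9.48, 18.9, 47.5, 7.95, 4.73 and 1.19%. Its main fraction was thus 2 with arsenite and 5 in the control, and its relative shift was −0.72, or −0.25 without fraction 5, which ended the call. RAB1A lay at 2.72 with arsenite and 4.86 in the control (relative shift −0.68, and −0.39 without fraction 1, which ended the call). RAB2A, which acts between the Golgi and the endoplasmic reticulum, lay at 2.95 with arsenite and 5.01 in the control and moved lower (−0.60). It did not meet the rule with size factors (−0.39) or without fraction 6 (−0.45). RAB6A, a Golgi Rab of retrograde transport, met the rule narrowly at −0.50. It missed it with size factors (−0.12), with 1 percentage point added or among genes with no 0 (both −0.47), and without fraction 2, 4 or 6 (−0.25, −0.45 and −0.33). By the 50% point RAB6A lay at −0.82. The other 6 ranged from −0.42 for RAB18 to 0.37 for RAB2B, which was the highest of the group. RAB18 moved lower by the 50% point (−0.62) and without fraction 3 (−0.51), 6 (−0.55) or 7 (−0.57). RAB30 (−0.31) moved lower without fraction 5 (−0.55). RAB43 (0.10) moved higher with size factors (0.73) and without fraction 2 (0.79). RAB2B had 21.4% of its total in fractions 5 to 8 with arsenite and 46.1% in the control, and with size factors it moved higher (0.64).

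Among 7 early endosome members 1 moved lower and 2 moved higher, with a median of −0.10 that turned to 0.17 with size factors. RAB5C, 1 of 3 RAB5 genes for the fusion of early endosomes, had the lowest value (−1.16). Its shares in arsenite fractions 1 to 8 were 22.5, 54.2, 13.9, 5.15, 2.37, 0.962, 0.483 and 0.466%. In control fractions 1 to 8 they were 3.18, 9.11, 7.15, 8.93, 38.5, 25.5, 6.08 and 1.62%. In fractions 5 to 8 RAB5C thus had 4.29% with arsenite and 71.6% in the control. RAB31 and RAB22A, relatives of RAB5 that act on endosomes, moved higher (0.87 and 0.84; RAB22A 1.27 with size factors). RAB22A had 9.44, 27.1, 23.4, 18.7, 13.3, 4.67, 2.25 and 1.17% in arsenite fractions 1 to 8. In control fractions 1 to 8 it had 3.76, 7.2, 24.3, 40.0, 17.1, 2.69, 3.34 and 1.67%. Its total in fractions 5 to 8 was 21.4% with arsenite and 24.8% in the control, and its largest control fraction was 4. RAB21, which has the longest annotated mRNA of the family, had a relative shift of −0.10.

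Of 12 members that act in recycling and at the plasma membrane, 5 moved lower and 1 higher, and the median was −0.37. RAB11A, the Rab of recycling endosomes, lay at 2.29 with arsenite and 4.85 in the control (relative shift −1.11, and −0.56 without fraction 1). RAB10, of exocytic transport, lay at 2.67 with arsenite and 4.96 in the control (−0.84). RAB11B (−0.80) moved lower but not without fraction 5 (−0.44). RAB13, known from tight junctions, had 53.7% of its total in fraction 1 with arsenite and 14.7% in the control. Its relative shift was −0.77, which missed the rule without fraction 1 (−0.36) or 5 (−0.43) and was −1.39 by the 50% point, the fraction number where the running total of the shares passes 50%. RAB14 moved lower at −0.54, but not with size factors (−0.30), with 1 percentage point added to each share (−0.50), or without fraction 3 (−0.43) or 6 (−0.25). By the 50% point it lay at −0.88. RAB15 was the member that moved higher (0.82, and 1.31 by the 50% point). It lay at 3.20 with arsenite and 3.83 in the control, a control position below that of most Rab mRNAs. RAB12 at 0.30 moved higher with size factors (0.73).

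Late endosome, lysosome and related organelle members had a median of −0.45 over 10 genes (−0.58 with size factors), with 4 moved lower and none higher. RAB7A, which directs late endosomes to lysosomes, had the highest control position of all 51. Its shares in arsenite fractions 1 to 8 were 15.7, 44.5, 16.6, 11.2, 7.35, 2.42, 1.27 and 0.897%. In control fractions 1 to 8 they were 2.44, 3.82, 5.15, 7.38, 22.2, 44.8, 11.5 and 2.70%. It thus lay at 2.67 with arsenite and 5.37 in the control (relative shift −1.25), with its largest share in fraction 2 and fraction 6. RAB9A, of transport back to the Golgi, had the lowest arsenite position of the family, 1.95, against 4.40 in the control (−0.99). Its call did not hold without fraction 1, where the value was −0.43. With size factors (−1.10) and without fraction 2 (−1.24) the size was met, but the sign did not hold with a further fraction removed. Without fraction 5 it was −0.65. RAB38, of melanosome formation, moved lower (−0.85; −1.45 with size factors, −0.49 and no call without fraction 5). RAB34 stood at the threshold (−0.50). Its call ended under 6 of 12 alternatives, in 5 by size and without fraction 2 (−0.54) by the sign, with values from −0.91 to −0.23 over all of them. RAB32, a relative of RAB38, had −0.47 and moved lower with size factors (−1.23) and without fraction 3 (−0.68), 4 (−0.64), 6 (−0.62) or 7 (−0.55). RAB39A (0.38) and RAB39B (0.19) were the highest of the group. RAB39A moved higher by the 50% point (0.68) and without fraction 5 (0.63). RAB39B moved higher without fraction 5 (0.53) and had −0.01 without fraction 7.

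Members of regulated secretion had the widest range of the groups, with 2 of 7 moved higher, 1 lower and a median of −0.14. RAB3 proteins act in the exocytosis of synaptic vesicles and hormone granules, and RAB27 proteins in that of secretory granules and exosomes. RAB3C had the lowest relative shift of the family (−1.64), at 2.09 with arsenite and 5.19 in the control. RAB3B, its close relative, moved higher (0.63), at 4.18 with arsenite and 5.0 in the control. The RAB3B call was lost with size factors (0.41) and without fraction 1 (0.49) or 5 (0.37). By the 50% point (0.99) the size was met, but the sign did not hold with a further fraction removed. RAB27B had 0, 14.8, 27.9, 37.2, 14.3, 1.78, 2.56 and 1.61% in arsenite fractions 1 to 8. In control fractions 1 to 8 it had 0.897, 4.84, 6.61, 34.9, 34.7, 14.3, 3.29 and 0.425%. It moved higher at 0.64 (1.15 with size factors and 1.02 without fraction 3), and without fraction 1, 4 or 7 it had 0.45, 0.44 and 0.40 and did not meet the rule. RAB26 was listed at 0 in arsenite fraction 3 and control fractions 1, 6 and 7, and its relative shift of 0.32 ran from −0.68 to 0.94 over the alternatives.

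The remaining 5 members were RAB23, a negative regulator of Hedgehog signalling, RAB28, and the 3 RAB40 genes, whose proteins carry a SOCS box that joins ubiquitin ligases. RAB40A and RAB40B moved higher and none of the 5 moved lower. RAB40B had 15.3, 44.2, 21.6, 9.61, 4.95, 2.44, 1.19 and 0.612% in arsenite fractions 1 to 8. In control fractions 1 to 8 it had 6.29, 33.8, 30.0, 18.1, 4.94, 3.86, 2.03 and 1.01%. Its largest share was in fraction 2 in both gradients, its control position of 3.06 was the lowest of the 51, and its relative shift was 0.99. RAB40A, at 3.54 with arsenite and 3.57 in the control, had the highest relative shift of the family (1.42). It was listed at 0 in control fractions 6 and 8, and 18.5% of its annotated 36-base stretches also occur in RAB40AL. RAB40C, RAB28 and RAB23 had 0.26, 0.25 and −0.09. With size factors RAB40C (0.52) and RAB28 (0.51) moved higher, as RAB40C did without fraction 2 (0.56).

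**Figure D3:**
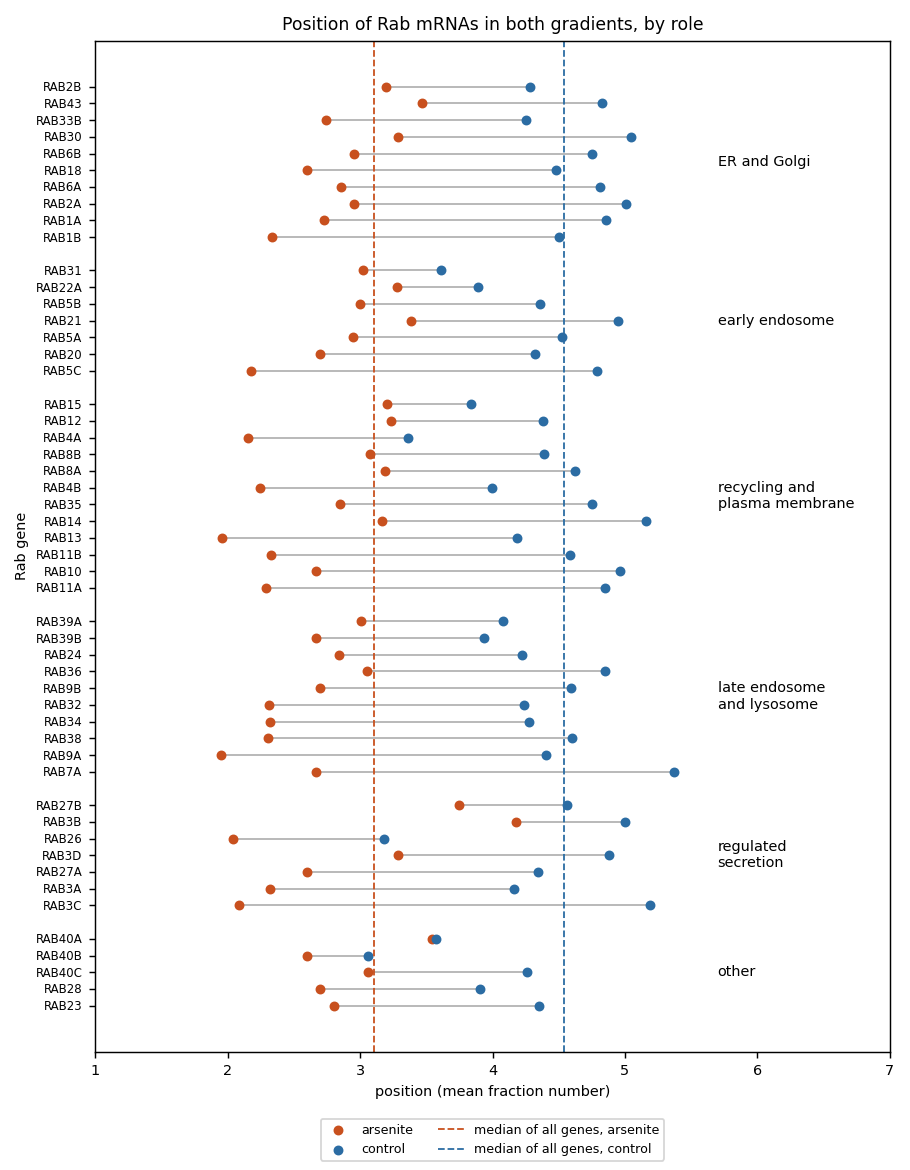
Position (mean fraction number) of 51 Rab mRNAs with arsenite and in the control, joined by a line and grouped by role, with dashed lines at the medians of all genes, 3.10 with arsenite and 4.54 in the control. Every arsenite point lies left of its control point, with the longest line for RAB3C and the shortest for RAB40A.

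Members that share a number are close relatives with similar proteins, and 28 of the 51 fall into 12 such sets. Their annotated coding sequences were 67.1 to 89.2% identical within a set (median 74.3% over 21 pairs). The relative shifts of 13 of these pairs differed by at least 0.5 fractions and those of 7 pairs by at least 1. The median difference was 0.73 over the 21 pairs and 0.60 over the 1254 other pairs of Rab genes. Most of those other pairs thus also differed by at least 0.5. Pairs share genes, so they are not independent. The RAB3 and RAB5 sets held 6 of the 7 pairs that differed by at least 1, and with size factors 5 of 9. Sets with more members supply more pairs, and these sets are among the largest. Of the 6 pairs, all but RAB3A with RAB3B held RAB3C or RAB5C. Stretches of 60 coding bases round the phosphate-binding loop, which holds the nucleotide, are shown to set the likeness of their reading frames beside the unlike gradients. Capitals mark positions at which the members of a set are not all alike, 17 in RAB3 and 18 in RAB5. Sequences are from GENCODE release 29, sense strand, 5′ to 3′, counted from the start codon: bases 76 to 135 of RAB3A (chromosome 19), RAB3B (chromosome 1) and RAB3D (chromosome 19), 100 to 159 of RAB3C (chromosome 5), 70 to 129 of RAB5A (chromosome 3) and RAB5B (chromosome 12), and 73 to 132 of RAB5C (chromosome 17).
RAB3A: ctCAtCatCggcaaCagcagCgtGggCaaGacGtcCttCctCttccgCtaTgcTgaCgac
RAB3B: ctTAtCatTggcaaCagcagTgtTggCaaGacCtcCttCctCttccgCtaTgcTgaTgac
RAB3C: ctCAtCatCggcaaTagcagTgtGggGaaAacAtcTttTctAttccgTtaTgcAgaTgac
RAB3D: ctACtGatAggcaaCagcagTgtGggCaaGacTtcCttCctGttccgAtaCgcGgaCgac
RAB5A: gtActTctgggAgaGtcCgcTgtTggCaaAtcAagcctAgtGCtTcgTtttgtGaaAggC
RAB5B: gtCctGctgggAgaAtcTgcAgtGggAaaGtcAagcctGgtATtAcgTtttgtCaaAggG
RAB5C: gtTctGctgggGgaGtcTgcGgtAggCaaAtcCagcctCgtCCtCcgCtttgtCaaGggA

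In the RAB3 set the widest pair was RAB3B and RAB3C, 2.28 fractions apart in relative shift with 71.5% coding identity. In arsenite fractions 1 to 8 RAB3B had 4.33, 8.0, 13.7, 31.9, 30.1, 7.05, 3.11 and 1.80%, and in control fractions 1 to 8 it had 3.19, 3.29, 9.66, 22.9, 19.2, 23.9, 12.4 and 5.46%. It kept 42.1% of its total in fractions 5 to 8 with arsenite, the highest of the family, against 61.0% in the control. RAB3C had 43.7, 25.7, 21.6, 2.05, 3.16, 2.07, 1.32 and 0.415% in arsenite fractions and 5.35, 5.77, 11.8, 9.72, 5.17, 37.0, 21.6 and 3.55% in control fractions. It had 6.96% in fractions 5 to 8 with arsenite, against 67.3% in the control, so both began in the far fractions and differed mainly with arsenite. The difference of the pair was 2.52 with size factors and from 1.68 to 2.80 with each fraction left out. RAB3A and RAB3D lay between them. RAB3D peaked in fraction 3 with arsenite (40.9%) and in fraction 5 in the control (36.3%), with a relative shift of −0.14. RAB3A peaked in fraction 2 with arsenite (57.0%) and had control shares of 22.4% in fraction 2 and 24.7% in fraction 5. Its relative shift of −0.39 became −0.72 and a call without fraction 2.

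RAB5C stood apart from RAB5A and RAB5B. RAB5A had 12.8, 36.5, 19.9, 13.7, 12.0, 2.71, 1.35 and 1.06% in arsenite fractions and 4.93, 10.5, 13.1, 16.2, 23.5, 20.6, 8.40 and 2.86% in control fractions. RAB5B had 5.06, 36.2, 32.0, 15.0, 7.11, 2.63, 1.34 and 0.776% in arsenite fractions and 1.22, 10.2, 15.6, 20.7, 35.7, 11.3, 3.88 and 1.45% in control fractions. All 3 had their largest share in fraction 2 with arsenite and fraction 5 in the control, and RAB5C had more of its total in fractions 1 and 2 with arsenite (76.7%, against 49.3% for RAB5A and 41.2% for RAB5B). RAB5C lay 1.03 below RAB5A (−0.12) and 1.25 below RAB5B (0.10) in relative shift, or 1.67 and 1.85 with size factors. Whether the stretches that RAB5C shares with another annotated gene play a part in its values was not tested.

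Other sets ranged from alike to far apart. RAB8A and RAB8B, of exocytosis and cilium formation, had 0.02 and 0.14, and RAB6B (−0.35) lay 0.16 above RAB6A, an order that turned with size factors (−0.33 and −0.12). RAB1A and RAB1B differed by 0.04 in relative shift, yet 42.7% of their arsenite profile and 27.7% of their control profile lay in different fractions. Their difference was 0.22 with size factors, and with 1 fraction left out it ran from −0.51 to 0.38. RAB27B lay 0.93 above RAB27A (−0.29) and RAB2B 0.97 above RAB2A. RAB9B (−0.43) lay 0.56 above RAB9A, and without fraction 2 (−0.53), 3 (−0.61) or 7 (−0.63), or by the 50% point (−0.61), it moved lower too, while with size factors it had 0.01. RAB4A (0.25) and RAB4B (−0.29), of fast recycling, had low control positions of 3.36 and 3.99. RAB4A moved higher without fraction 4 (0.55), and RAB4B moved lower without fraction 3 (−0.59). Both signs turned with another fraction left out, to −0.09 for RAB4A without fraction 2 and 0.15 for RAB4B without fraction 1.

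**Figure D4:**
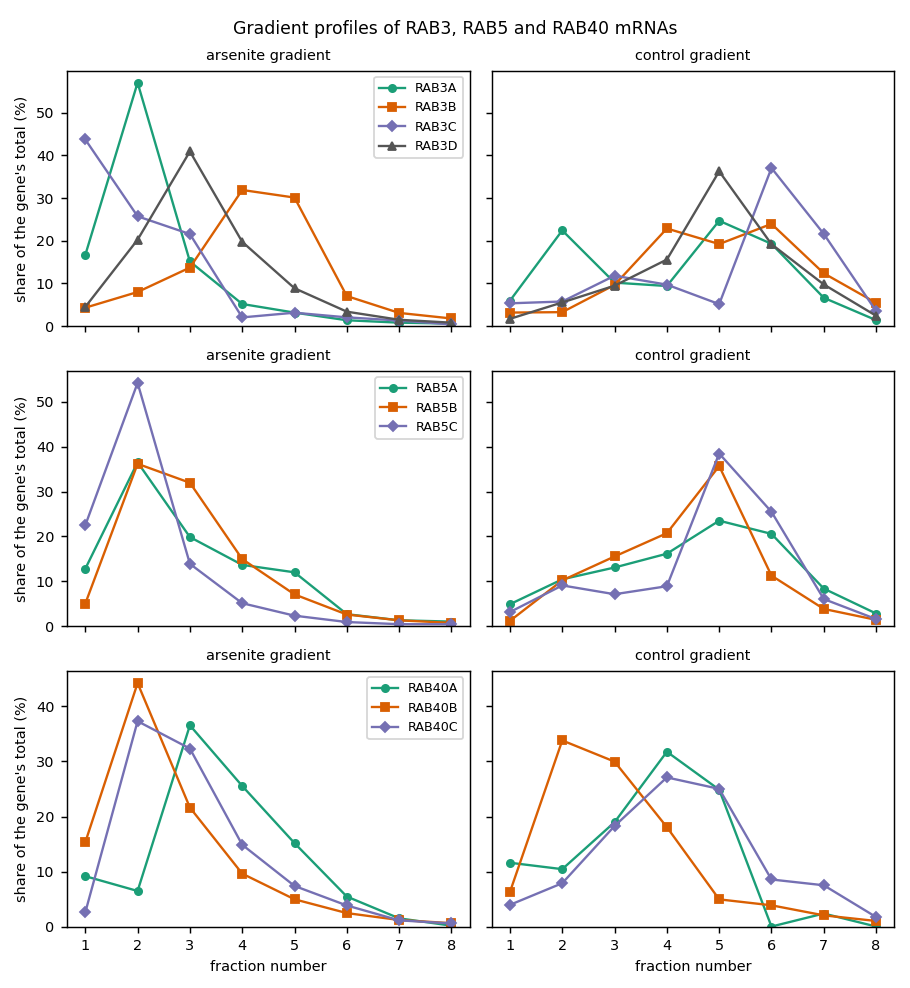
Shares (vertical axis, percent of the gene's total) over fractions 1 to 8 of the RAB3, RAB5 and RAB40 mRNAs, arsenite gradient at left and control gradient at right, 1 library per point. RAB3B keeps 30.1% in arsenite fraction 5 where RAB3C has 3.16%, and RAB40B peaks in fraction 2 in both gradients.

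The Rab mRNAs share a short coding sequence and differ widely outside it. By GENCODE release 29, with 1 transcript per gene, all 51 matched, with a median coding length of 648 nt (585 to 1002 nt), against 1431 nt over all genes matched. Their annotated mRNA length had a median of 3389 nt and ran from 1173 nt for RAB4B to 15546 nt for RAB21, and their 3′ untranslated length from 173 nt for RAB40A to 14612 nt for RAB21. Which transcript ends the cells used is not known from the files.

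With arsenite, longer Rab mRNAs tended to lie at higher fraction numbers. The Spearman correlation of position with annotated mRNA length across the 51 members was 0.54 with arsenite (Pearson r of log10 length 0.60) and 0.38 in the control (0.32). It ran from 0.47 to 0.58 with arsenite and from 0.33 to 0.41 in the control over 12 other settings. With the 3′ untranslated length it was 0.47 with arsenite and 0.42 in the control, and with coding length, which hardly varies, 0.01 and −0.21. Across 13062 genes the values for mRNA length were 0.67 with arsenite and 0.23 in the control, and for 3′ untranslated length 0.37 and 0.03. Across 2421 other genes with coding lengths in the Rab range, mRNA length had 0.50 with arsenite and −0.0003 in the control. For their 3′ untranslated length it was 0.48 and −0.001. The points share libraries and depth, and this is a description across genes. The 17 shortest Rab mRNAs, up to 2244 nt, had a median position of 2.32 with arsenite and 4.28 in the control, with 8 moved lower and none higher, where 24.0% and 23.6% of all genes did. The middle 17 had a median position of 2.86 with arsenite and 4.52 in the control, with 4 moved lower and 3 higher. The 17 longest, from 4055 nt, had one of 3.07 with arsenite and 4.75 in the control, with 3 moved lower and 4 higher. The relative shift itself had a Spearman correlation of 0.22 with mRNA length across the 51 members and 0.40 across the 13062 genes. Members that went against this order included RAB3C, with 8896 nt and the lowest relative shift, and RAB11A, with 4930 nt and −1.11.

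**Figure D5:**
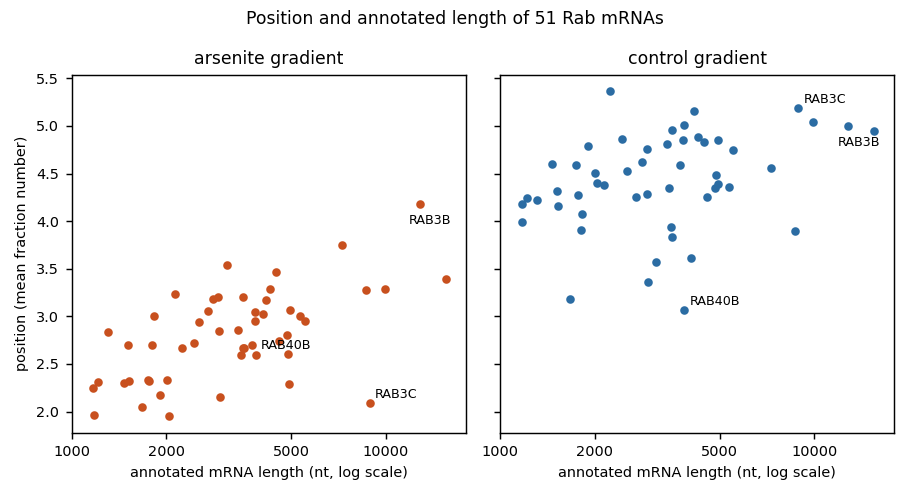
Position (vertical axis, mean fraction number) against annotated mRNA length (horizontal axis, nt, log scale) of 51 Rab mRNAs, arsenite gradient at left and control gradient at right. Position with arsenite tends to rise with length (Spearman 0.54). Among the members off this order are RAB3C at 8896 nt and RAB11A at 4930 nt. The control relation is weaker (0.38).

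Other genes of similar coding length had shifts close to those of the family. Among 2421 other genes with 585 to 1002 coding nt, a comparison chosen after the values were seen, 33.5% moved lower and 15.8% higher, with a median relative shift of −0.22. For the Rab genes these were 29.4%, 13.7% and −0.16. Positions had medians of 2.67 with arsenite and 4.39 in the control in those genes, against 2.80 and 4.40 in the Rab genes. Control fraction 5 was the largest fraction for 44.8% of them, against 62.7% of the Rab genes and 28.6% of all genes.

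The lists of Rab regulators and effectors did not share one direction. Among 8 genes for Rab chaperones and prenylation 4 moved lower (50%) and 1 higher (12.5%), where 24.0% and 23.6% of all genes did. The list median was −0.54, and −0.95 with size factors. GDI2, a GDP dissociation inhibitor, lay at 2.60 with arsenite and 5.37 in the control (relative shift −1.31, and −0.75 with the fraction left out that raised it most). CHML, a Rab escort protein, moved higher (0.52), and RABGGTB, the beta subunit of the prenylating enzyme, had 0.38. Of 38 exchange factors 12 moved higher and 5 lower (median 0.21), from RIN2 (1.19, and 2.07 with size factors) and DENND2C (1.10) to the TRAPP subunits TRAPPC6A (−0.77) and TRAPPC2L (−1.0, and −1.90 with size factors). Of 36 GTPase-activating proteins 8 moved higher and 3 lower (median 0.21, and 0.35 with size factors), with EVI5 (1.13) and USP6NL (0.97) highest and TBC1D10A (−0.97) and TBC1D7 (−1.25) lowest. Of 47 effectors 13 moved higher and 3 lower (median 0.20). RIMS1 (1.23) and RIMS2 (1.17), which bind RAB3 at synapses, were highest, and the Golgi proteins GORASP2 (−0.74) and GORASP1 (−0.74) lowest. Of the effectors 27.7% moved higher and 6.38% lower, of the GTPase-activating proteins 22.2% and 8.33%, and of the exchange factors 31.6% and 13.2%, where 23.6% and 24.0% of all genes did. The shares moved higher of the effectors and GTPase-activating proteins are near that of all genes. Highest and lowest here and in the next lists refer to genes with no share of 0. With size factors GORASP2 had −0.49, TBC1D7 −2.08, EVI5 1.97, USP6NL 1.53 and RIMS2 1.84. With 1 fraction left out, the value nearest 0 was 0.36 for CHML, −0.38 for TRAPPC2L, −0.26 for TRAPPC6A, −0.46 for TBC1D10A, −0.75 for TBC1D7, −0.29 for GORASP1, −0.26 for GORASP2, 0.53 for RIMS1 and 0.73 for RIMS2.

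Of 24 Arf, Arl and Sar genes, which act in coat formation and organelle traffic, 10 moved lower and 3 higher (median −0.34). These were 41.7% and 12.5%, where 24.0% and 23.6% of all genes did. ARF4, of Golgi coats, had −1.47 and ARL3, of cilia, −1.31. ARL10, at 3.69 with arsenite and 4.25 in the control, moved higher (0.89, and 1.38 with size factors), and ARL3 had −0.56 without the fraction that moved it most. Of 23 Ras genes 3 moved lower and 3 higher (13.0% each), with a median of −0.11 (0.03 with size factors). RALA (−1.05, and −0.63 with 1 fraction left out) was lowest among Ras genes with no share of 0, then RHEB (−0.41), and MRAS (1.00) and RAP2A (0.94) were highest among these. RAB7L1, the Rab gene whose symbol the rule did not match, had a relative shift of 0.10.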

How the data were processed

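Total RNA of sucrose gradient fractions was isolated with Trizol and libraries were made with NSR priming, per the labels' protocols. The authors deposited 1 table of 13148 genes in which 16 columns hold values in the unit fraction, the share of a gene's total in each library, and 3 score columns, which give a gene's mean fraction number in either gradient and the change between them. Exons of RefSeq genes were the features, per the file headers, and per the submitters' processing notes the build was hg19. The sources used here give no aligner, counter, strand setting, filter or scaling between libraries. Depth is unknown, so no interval or floor is given. The recomputed mean fraction numbers differed from the authors' deposited scores by at most 1.67e-14.

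Position, relative shift and the rule for moved genes were computed over the whole table with Python 3.11.15, numpy 2.4.6 and pandas 2.3.3. The rule was run on simulated data with planted shifts larger than the threshold and read sampling noise only. Those data held no variation between libraries, so the run cannot say how often real calls would repeat. The alternatives were size factors, 1 percentage point added to each share, each fraction left out, the 50% point, genes with no 0, thresholds of 0.25 and 1, and pseudocounts of 0.1 and 10 percentage points. Members, role lists and rules were chosen with earlier results of these data known. The named Rab genes were the highest and lowest of each role list, every member that shares a number with another, those next to the threshold, and the 2 highest and 2 lowest genes without a 0 of the other lists. Some genes that this rule would name, and 1 list, are not reported here. The other members named were chosen after their values were seen. RAB3GAP1, in 2 lists, was counted once, and 1 list gene was found under an older symbol. The principal transcript was taken from GENCODE 29 for 13062 genes (99.3%), 745 by another symbol. That annotation is on another build, so no coordinates are given. Stretches of 36 bases were compared with all GENCODE transcripts of other genes on both strands, since strand is not stated.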

Additional observations from a re-analysis of the deposited data

How the results depend on the processing

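No paired analysis was possible because each group is 1 library. In the 8 deposited fractions 15 members moved lower and 7 higher, where 24.0% and 23.6% of all genes did. These became 24 and 11 at a threshold of 0.25 fractions (31.3% and 34.8% of all genes). At a threshold of 1 they were 4 and 1 (9.33% and 6.69% of all genes). With size factors 12 moved lower and 11 higher, where 26.4% and 28.7% of all genes did. The median relative shift of −0.16 was −0.29 by the 50% point, −0.33 without fraction 7, and −0.29 without the 14 members that share at least 10% of their 36-base stretches with another gene, an alternative chosen after seeing the data. Of the members 5 of 7 that moved higher and 5 of 15 that moved lower did so under each alternative that kept the threshold of 0.5 fractions and could be computed for them, 12 at most, and none took the opposite call under these. With size factors the Rab positions had medians of 4.13 with arsenite and 4.28 in the control. The percent in fractions 5 to 8 was then 41.4 and 48.2. Size factors largely remove a common shift by construction, so these values cannot tell how large the common shift was. Taken over fractions 4 to 8 that share was 24.1% with arsenite and 74.7% in the control, and over fractions 6 to 8 it was 4.60% and 21.9%. With a pseudocount of 10 percentage points the median log2 ratios of fractions 1 to 8 were 0.79, 1.13, 0.57, −0.30, −1.17, −0.98, −0.49 and −0.14, and with 0.1 that of fraction 8 was −1.25. With size factors the list medians were 0.17 for early endosome members and 0.034 for Ras genes, both of the opposite sign, −0.58 for late endosome members, −0.95 for chaperones and prenylation and 0.35 for GTPase-activating proteins. The cause of these changes was not tested. Without replicates or depth, no spread between samples can be set beside any of these values.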
